A study of Mus musculus with 8 samples.

Results

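The ribosomal RNA (rRNA) and miscellaneous RNA (misc_RNA) entries of a small RNA sequencing table from mouse testis are described here. They were taken as every row that the deposited table assigns to either type, which gave 69 of the 20558 RNAs listed: 62 of type rRNA and 7 of type misc_RNA. The small RNA fraction of adult C57Bl/6 testis was sequenced in 8 males, 4 labelled control (SD mice, standard chow, named M1N, M2N, TN1 and TN2) and 4 labelled experimental (WD mice, Western-like diet, named M1W, M2W, M3W and M5W). The labels give mating at 4 months of age for all 8. The labels' rearing text gives a fat-rich diet from the age of 4 weeks for all 8 mice, controls included, while the study's methods divide the males into chow and Western-like diet at an earlier age. The names of the SD mice begin with M in one pair and with TN in the other, and no TN name occurs among the WD mice. The comparison asked whether these RNAs differed in the testis with the diet of the male.

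5S rRNA is a short RNA of the large ribosomal subunit, made by RNA polymerase III from tandemly repeated genes, and copies of it that have drifted in sequence lie scattered over mammalian genomes. 5.8S rRNA belongs to the same subunit but is cut from the long precursor made by RNA polymerase I. Y RNAs are short RNA polymerase III transcripts bound by the Ro60 protein, and vault RNA is the RNA part of the vault particle. Small RNA libraries hold fragments of such RNAs beside miRNAs, which repress mRNAs, and piRNAs, the short RNAs that silence transposons in male germ cells.

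Of the 69 entries, 66 carry an identifier found in the GENCODE M1 annotation of the NCBIM37 assembly (mm9). They comprised 58 5S entries, 1 entry annotated as 5.8S rRNA, 5 Y RNAs and 2 vault RNAs. The remaining 3 rRNA entries, FR125214, FR030731 and FR294099, are listed under a name alone and were given no identity or position here. None of the 69 rows carries the name of the 7SK RNA, of the RNA of RNase P, RNase MRP or telomerase, or of a mitochondrial rRNA.

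The 5S entries fell into 2 kinds. In one, 42 entries lay in a cluster of 84960 bases on the minus strand of chromosome 8, all within an intron of Gm20388, which is annotated on the opposite strand, and every 5S gene annotated in that interval was listed. The other 16 entries were spread over 12 chromosomes. In all, 58 of the 309 5S genes annotated in the assembly were in the table. Among the cluster entries 25 had the same sequence of 119 bases, which occurs 32 times in the genome. Every stretch of 31 bases of it, the length to which reads without an adaptor were trimmed, has further copies in the genome, with a median of 47 occurrences.

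The 2 Y RNAs with most of the misc_RNA counts lie on chromosome 6, and their sequences are shown since the misc_RNA results turn on them, read 5′ to 3′ from NCBIM37 on the strand of the gene. The 112-base Y RNA (chr6:47738068-47738179, minus strand) and the 102-base Y RNA (chr6:47731623-47731724, plus strand) overlap no other annotated gene, and each occurs once in the genome. The RefSeq gene table, made on another build, names Rny1 and Rny3 on this chromosome, but the annotation of the files' build calls both only Y RNA.
112-base Y RNA: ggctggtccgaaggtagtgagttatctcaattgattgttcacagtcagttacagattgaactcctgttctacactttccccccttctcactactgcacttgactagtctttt
102-base Y RNA: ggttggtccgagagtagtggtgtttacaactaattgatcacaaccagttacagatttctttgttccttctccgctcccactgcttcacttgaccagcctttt

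The deposited values are raw counts, with totals of 2064562 to 3253798 per mouse. Levels below are CPM, counts scaled to a library of 1000000 and divided by TMM factors, which ranged from 0.898 in M1N and 0.964 in M2N to 1.05 in TN2. A floor of 3 counts corresponds to 0.933 to 1.39 CPM and covers counting error only. Of the miRNAs abundant in male germ cells, miR-34c-5p was at 6902 to 8433 CPM in SD and 6569 to 10588 CPM in WD mice, miR-34b-3p at 1007 to 1747 and 922 to 1087 CPM, and miR-449a-5p at 940 to 2299 and 835 to 1125 CPM. Of the miRNAs of gonadal somatic cells, miR-202-5p was at 3408 to 4094 CPM in SD and 4081 to 6856 CPM in WD mice, and miR-202-3p at 98.9 to 202 and 83.7 to 165 CPM. The diets overlapped for all 5, and the part of cell makeup in the results was not tested. Of the markers of other tissues, blood miR-451 was at 37.3 to 142 CPM and miR-144-3p at 0.957 to 6.95 CPM. Muscle miR-1a-3p was at 22.1 to 43.0 CPM and miR-133a-3p at 4.61 to 12.8 CPM, and brain miR-9-5p was at 4.82 to 18.1 CPM. Liver miR-122-5p had no count in the WD mice and reached 15.4 CPM among the SD mice.

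Counts on rRNA entries made up 0.126% ± 0.00823 (SD, n = 4) of each SD library and 0.120% ± 0.0101 of each WD library, with a range over all mice from 0.107% in M3W to 0.135% in TN2. For misc_RNA entries the shares were 0.0260% ± 0.00290 with standard chow and 0.0230% ± 0.00481 with the Western-like diet (SD, n = 4). The diets overlapped for both types, and the differences between the means were smaller than the larger SD. The 95% Wilson intervals of these shares in single mice reached at most 0.00501 percentage points to either side. In whole-tissue RNA, fewer cells of a type and less RNA per cell cannot be told apart.

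FR125214 held 71.5% of all rRNA counts, from 59.6% in TN2 to 82.4% in M2N. Its level was 1126, 984, 837 and 769 CPM in M1N, M2N, TN1 and TN2. In the WD mice M1W, M2W, M3W and M5W it was 772, 907, 795 and 820 CPM. The WD mice lay within the range of the SD mice, of which M1N and M2N were the highest of all 8. The log2 fold change, WD against SD, was -0.17 (SE 0.17, 95% interval -0.53 to 0.18, edgeR adjusted p = 0.605), and the exact permutation test over the 70 assignments of mice, two-sided, gave p = 0.286 against a smallest possible value of 0.0286.

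The 5S entries held 26.9% of the rRNA counts, but those of identical sequence did not give separate measurements. The 25 entries of identical sequence had 141 to 152 counts each over the 8 mice. Within a mouse they were equally close: in TN1 they had 21 to 30 counts, in M5W 25 to 29 and in M3W 9 to 13. The variance over the 25 entries divided by their mean was 0.0277 to 0.214 in the 8 mice, where independent counts would give about 1. The authors' text does not give how reads matching several places were counted, so these entries may share reads to an unknown extent. Their level is given below as a single median, and counts and medians over all 5S entries take each copy separately.

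**Figure D1:**
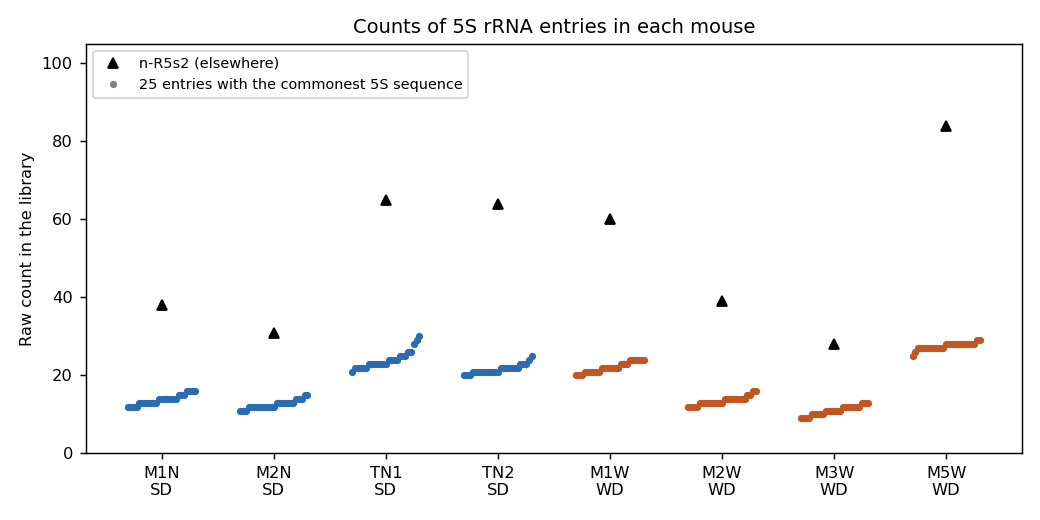
Raw counts (vertical axis) of 5S rRNA entries in each of 8 mice (horizontal axis, with diet). Small points are the 25 entries with the commonest 5S sequence, blue in SD and orange in WD mice, ordered by count within a mouse, and the triangle is n-R5s2. The identical entries stay within a narrow band in every mouse, with n-R5s2 above it.

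The other 5S entries differed more among themselves. The 17 cluster entries of another sequence had 43 to 152 counts over the 8 mice. Outside the cluster the range was wider still. n-R5s2 (chromosome X, in no annotated gene other than itself) had 409 counts, n-R5s33 (chromosome 16, in an intron of Lrch3 on the same strand) had 392 and n-R5s185 (chromosome 4, overlapping an exon of Tmem38b on the same strand) had 311. n-R5s194 had 231 and n-R5s71 had 203. These 5 entries were above every cluster entry, whose highest total was 152, and the other 11 were below every entry with the commonest sequence, down to 9 counts.

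The SD mice stood in the same order for the median of the 25 identical entries, n-R5s2 and n-R5s33. The median level of the 25 identical entries was 4.80, 3.83, 7.25 and 9.73 CPM in M1N, M2N, TN1 and TN2. It was 7.23, 5.70, 5.07 and 8.71 CPM in M1W, M2W, M3W and M5W. M1N and M2N were the lowest of all mice and TN2 the highest, and the diet means, 6.40 ± 2.64 CPM in SD and 6.68 ± 1.63 CPM in WD (SD, n = 4), differed by less than either spread. n-R5s2 kept to the same order of SD mice, with 13.0, 9.88, 20.5 and 29.6 CPM in M1N, M2N, TN1 and TN2. Its WD values were 19.7, 17.1, 12.9 and 26.1 CPM in M1W, M2W, M3W and M5W. The ratio of n-R5s2 to the median identical entry was 2.55 to 3.05 in all 8 mice, and that of n-R5s33 to n-R5s2 was 0.917 to 1.11. Because the entries may share reads, these are ratios of counts and not of RNA amounts.

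For n-R5s2 the log2 fold change, WD against SD, was 0.10 (SE 0.31, 95% interval -0.56 to 0.76, edgeR adjusted p = 0.893; exact permutation p = 0.800). n-R5s185 was at 8.23, 6.38, 16.4 and 21.3 CPM in M1N, M2N, TN1 and TN2. In the WD mice, in the order M1W, M2W, M3W and M5W, it was at 16.4, 12.3, 11.5 and 20.5 CPM. The WD mice lay above M1N and M2N and, except for M1W and M5W, below TN1 and TN2. Its log2 fold change was 0.27 (SE 0.33, edgeR adjusted p = 0.705; exact permutation p = 0.429). Over the 40 5S entries that passed the filter on low counts the median log2 fold change was 0.12 (range -0.09 to 0.28), beside -0.01 over all RNAs tested.

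The other 4 tested 5S entries outside the cluster were also lower in M1N and M2N than in TN1 and TN2. n-R5s33 was at 13.0, 9.25, 20.2 and 27.8 CPM in M1N, M2N, TN1 and TN2, and at 18.7, 15.8, 14.3 and 24.0 CPM in M1W, M2W, M3W and M5W. n-R5s194 (chromosome 3) was at 7.88, 6.06, 14.2 and 13.9 CPM in the SD mice in that order and at 10.1 to 11.5 CPM in the WD mice. All WD mice were thus above M1N and M2N and below TN1 and TN2. n-R5s71 (chromosome 11) was at 5.48, 4.78, 9.77 and 16.2 CPM in M1N, M2N, TN1 and TN2 and at 6.45 to 13.4 CPM in the WD mice. n-R5s195 (chromosome 3), the least counted of the 6 that were tested, was at 2.06, 1.59, 7.25 and 5.56 CPM in the SD mice in the same order and at 3.69 to 5.59 CPM in the WD mice. Their log2 fold changes against all SD mice ran from 0.03 to 0.22, and the edgeR adjusted p-values were 0.821 or more.

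n-R5s193, a copy of 109 bases on chromosome 4, and n-R5s28, on chromosome 17, ran in another order. n-R5s193 had 61 counts and did not pass the filter, with 4.80, 2.55, 4.10 and 3.24 CPM in M1N, M2N, TN1 and TN2 and 1.64, 3.07, 0.922 and 1.56 CPM in M1W, M2W, M3W and M5W. M2W alone of the WD mice was above an SD mouse. n-R5s28 had 57 counts and did not pass either, with 3.77, 1.91, 4.73 and 2.32 CPM in M1N, M2N, TN1 and TN2 and 1.38 to 2.63 CPM in the WD mice. The 8 further entries outside the cluster had 9 to 53 counts each over the 8 mice.

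In the cluster, n-R5s112, n-R5s100 and n-R5s124 had the highest mean levels, 6.92, 6.92 and 6.90 CPM, and log2 fold changes of 0.08, -0.07 and 0.09. n-R5s100 and n-R5s124 are among the 25 identical entries, and n-R5s112 has another sequence that 3 entries share. n-R5s115, of a sequence of its own, was at 3.77, 2.87, 5.99 and 8.34 CPM in M1N, M2N, TN1 and TN2 and at 4.82 to 8.40 CPM in the WD mice (log2 fold change 0.28, SE 0.35, edgeR adjusted p = 0.706).

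n-R5s2 was also set against FR125214, which was itself highest in M1N and M2N, so that the ratio is no separate measure of the order of the mice. Per 100 counts of FR125214 in the same library, n-R5s2 had 1.16 and 1.00 in M1N and M2N, and 2.45 and 3.85 in TN1 and TN2. The WD mice had 2.56, 1.89, 1.62 and 3.19 in M1W, M2W, M3W and M5W. They lay between the SD pairs, apart from M1W and M5W, which were within the range of TN1 and TN2. Whether the SD pairs differ was not tested.

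The Y RNAs ran in another order. The 2 Y RNAs of chromosome 6 held 92.4% of the misc_RNA counts. The 112-base Y RNA was at 182, 203, 166 and 150 CPM in M1N, M2N, TN1 and TN2, and at 139, 195, 141 and 133 CPM in M1W, M2W, M3W and M5W. Among the WD mice M2W alone reached the levels of M1N and M2N, while the other WD mice were below every SD mouse. The log2 fold change was -0.21 (SE 0.17, 95% interval -0.57 to 0.16, edgeR adjusted p = 0.550), with an exact permutation p of 0.229.

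The 102-base Y RNA was at 89.8, 84.5, 58.3 and 53.7 CPM in M1N, M2N, TN1 and TN2. Its levels in M1W, M2W, M3W and M5W were 54.6, 79.8, 50.2 and 43.2 CPM. M1N, M2N and M2W again stood above the other 5 mice, and TN1 and TN2 were close to M1W. The log2 fold change was -0.34 (SE 0.22, 95% interval -0.81 to 0.13, edgeR adjusted p = 0.456), with an exact permutation p of 0.200. The count of the 112-base Y RNA divided by that of the 102-base Y RNA was 2.03 in M1N, the lowest, and 3.09 in M5W, the highest.

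A Y RNA of 110 bases on chromosome 18 was at 6.51, 6.06, 4.41 and 2.32 CPM in M1N, M2N, TN1 and TN2 and at 3.94, 7.89, 3.23 and 3.42 CPM in M1W, M2W, M3W and M5W. M2W was the highest mouse and TN2 the lowest, and the diets overlapped (log2 fold change -0.12, SE 0.38, edgeR adjusted p = 0.891). The other 2 Y RNAs, a further copy of 112 bases on chromosome 6 and a copy on chromosome 2, had 21 and 18 counts over all mice and were not tested.

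The vault RNA of chromosome 18 was at 12.7, 10.8, 14.2 and 10.7 CPM in M1N, M2N, TN1 and TN2, and at 11.2, 17.5, 6.45 and 7.78 CPM in M1W, M2W, M3W and M5W. The WD mice surrounded the SD mice, with M2W above and M3W and M5W below all of them. Its log2 fold change was -0.19 (SE 0.29, edgeR adjusted p = 0.766; exact permutation p = 0.457). The second vault RNA, on chromosome 8, had 16 counts in all.

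**Figure D2:**
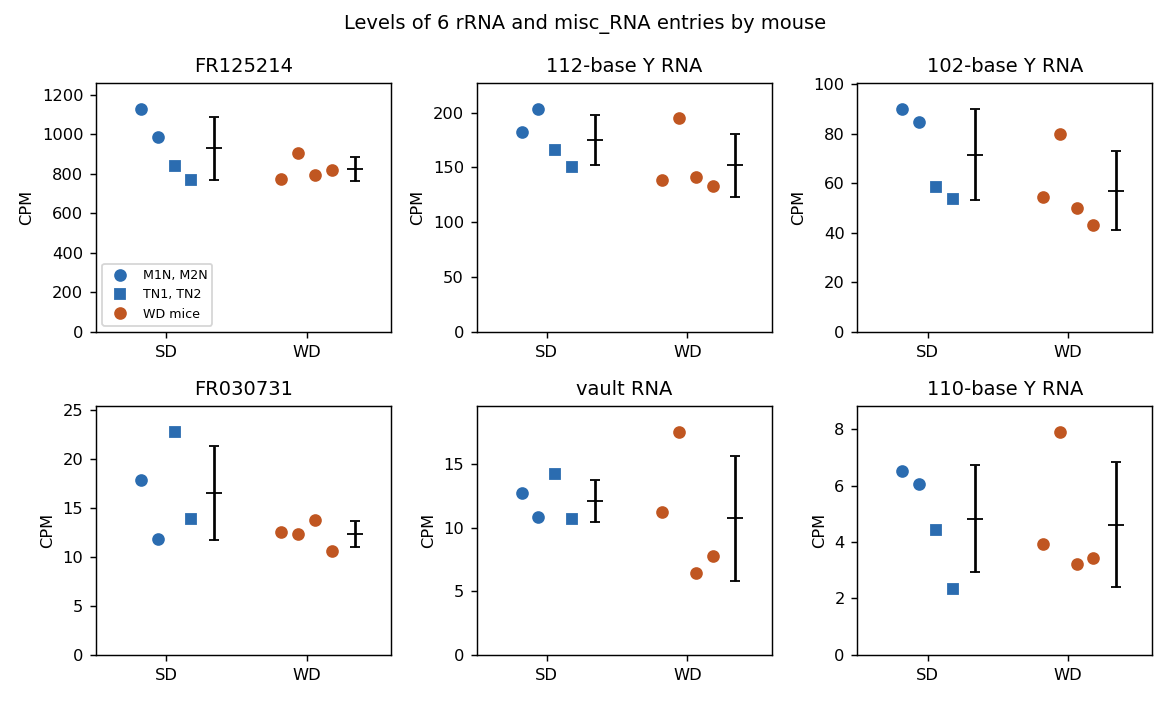
CPM (vertical axes, from 0, a separate scale in each panel) of 6 entries in SD and WD mice. Points are mice, with squares for TN1 and TN2 and circles for the others, and the bars are mean ± SD (n = 4). The diets overlap in each panel. On this CPM scale M1N, M2N and M2W are the 3 highest mice for FR125214 and for each of the 3 Y RNAs. With the counts that are not piRNA as the library, M1N is below TN1 and TN2 for the most counted Y RNA. The least counted of the 3 Y RNAs keeps the same 3 highest mice on that scale.

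FR030731 had the lowest unadjusted p of the members. It was at 17.8, 11.8, 22.7 and 13.9 CPM in M1N, M2N, TN1 and TN2 and at 12.5, 12.3, 13.8 and 10.6 CPM in M1W, M2W, M3W and M5W. All WD mice were below M1N, TN1 and TN2, but M2N was lower than 3 of them. The log2 fold change was -0.44 (SE 0.24, 95% interval -0.95 to 0.07, unadjusted p = 0.0851, edgeR adjusted p = 0.387; exact permutation p = 0.171). FR294099, with 98 counts, did not pass the filter. It was at 8.57 and 9.45 CPM in M1N and TN1, against 2.55 and 2.32 CPM in M2N and TN2 and 2.18 to 3.95 CPM in the WD mice. The entry annotated as 5.8S rRNA (chromosome 6, 143 bases) had 23 counts, at 0.622 to 2.19 CPM, around the floor.

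The filter on low counts was passed by 46 of the 69 entries, 42 of type rRNA and 4 of type misc_RNA, and the 23 others had 9 to 98 counts each. In edgeR's quasi-likelihood test 0 of the 46 were called at an adjusted p under 0.05 (lowest 0.387). At an unadjusted p of 0.05 or less 0 of 46 were called too, where 14.6% of the 16955 RNAs tested in all classes were. DESeq2 and limma-voom likewise called 0 at both thresholds, where 10.9% and 14.8% of all RNAs had such an unadjusted p. For none of the 46 were the diets free of overlap in CPM, beside 5.69% of all RNAs tested. Of the 46, 40 are 5S entries, some of which may share reads, so they cannot be taken as 46 independent measurements. With 5S entries of the same sequence counted once, 18 tested entries were left, again with 0 called. The standard errors of the 46 log2 fold changes were 0.17 to 0.43.

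The result changed with the SD mice used. Against M1N and M2N alone, all 40 5S entries had a positive log2 fold change (median 0.67, beside 0.00 over all RNAs tested). In that comparison 7 of 47 tested entries (14.9%) had an unadjusted p of 0.05 or less, 6 of them 5S entries, beside 35.5% of all RNAs. An adjusted p under 0.05 was reached by n-R5s185 (log2 fold change 1.08, edgeR adjusted p = 0.0204) and the 102-base Y RNA (log2 fold change -0.62, edgeR adjusted p = 0.0457), beside 20.8% of all RNAs. Against TN1 and TN2 alone, all 40 5S entries had a negative log2 fold change (median -0.31, beside 0.01 over all RNAs tested). In this comparison 2 of 47 (4.26%), FR030731 and FR294099, had an unadjusted p of 0.05 or less, beside 3.79% of all RNAs. None was called there at an adjusted p under 0.05, beside 0.134% of all RNAs. There n-R5s185 was at -0.27 and the 102-base Y RNA at 0.01 (edgeR adjusted p = 1 for each). Both comparisons share the WD mice. Of the 40 5S entries 25 have the same sequence and may share reads, so the 40 shared directions are not separate measurements. Against TN1 and TN2 alone, diet and the first letters of the names cannot be told apart.

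**Figure D3:**
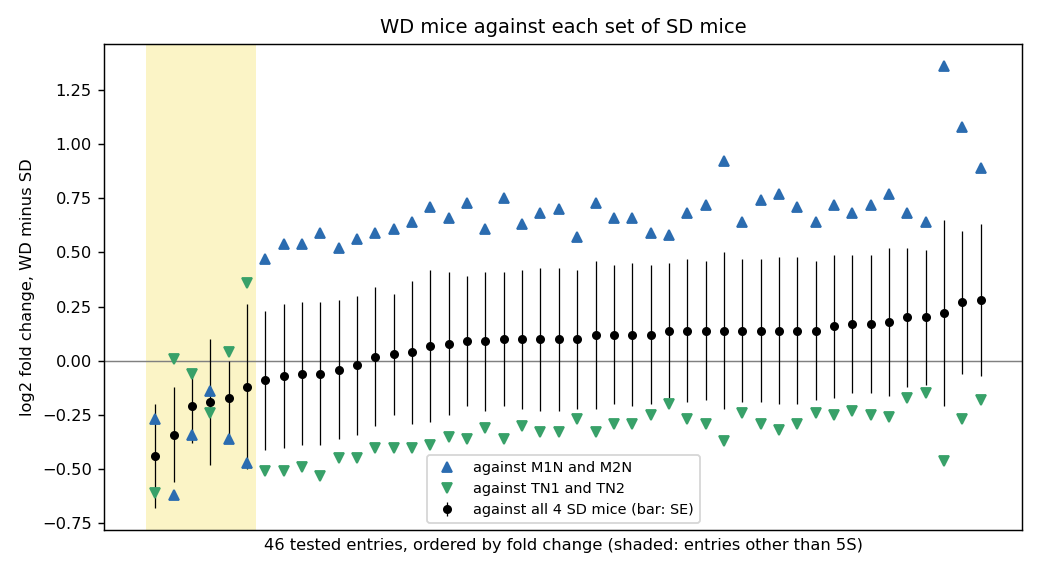
Log2 fold change, WD minus SD (vertical axis), of the 46 tested entries ordered by their value against all 4 SD mice (horizontal axis). Black points with bars are that value ± SE, upward triangles are against M1N and M2N and downward triangles against TN1 and TN2. The shaded entries are those other than 5S. For every 5S entry the triangles lie on opposite sides of 0, but many of these entries may share reads and are not separate measurements.

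Other classes of structural RNA were set beside the rRNA and misc_RNA entries. Of 127 snoRNAs tested, which guide the modification of rRNA, 21 were called higher in WD mice and 4 lower by the unadjusted p, together 19.7%, beside 14.6% of all RNAs. The 61 snRNAs tested, a class that includes the spliceosomal RNAs, gave 8 higher and 6 lower (23.0%). Among 21 mitochondrial tRNAs 2 were higher and 5 lower (33.3%). In the 2 tRNA classes 2 were higher and 10 lower of 89 (13.5%), and 0 higher and 6 lower of 139 (4.32%), shares below that of all RNAs. None of these had an adjusted p under 0.05, as no RNA of the table did in edgeR's test.

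The snoRNAs that take part in cutting the rRNA precursor were examined by name. Of 13 such entries 6 passed the filter, with a median log2 fold change of -0.38, and 1 of them, a U3 entry with 79 counts, had an unadjusted p of 0.05 or less (16.7%, beside 14.6% of all RNAs). This U3 entry was at 6.17, 2.55, 4.41 and 6.95 CPM in M1N, M2N, TN1 and TN2, and at 2.30, 4.39, 1.38 and 1.24 CPM in M1W, M2W, M3W and M5W (log2 fold change -1.10, SE 0.44, edgeR adjusted p = 0.322). U3 is a multicopy RNA, so its entries too may share reads. Snord118 (U8), needed for 5.8S and 28S rRNA, was at 27.0 ± 7.33 CPM in SD and 20.4 ± 3.07 CPM in WD mice (SD, n = 4; edgeR adjusted p = 0.403).

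mt-Tf and mt-Tv flank the small mitochondrial rRNA in the mitochondrial genome. mt-Tf was at 49.4, 24.6, 25.2 and 25.9 CPM in M1N, M2N, TN1 and TN2 and at 21.4, 24.1, 14.3 and 12.4 CPM in M1W, M2W, M3W and M5W. Every WD mouse was below every SD mouse, with M2W and M2N the closest (log2 fold change -0.80, SE 0.28, edgeR adjusted p = 0.318). mt-Tv had a log2 fold change of -0.50 (SE 0.21, edgeR adjusted p = 0.326) with overlapping diets, and mt-Tl1, which follows the large mitochondrial rRNA, was at 127 ± 20.3 CPM in SD and 133 ± 24.8 CPM in WD mice (SD, n = 4).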

How the data were processed

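Small RNA of adult testis was sequenced on a SOLiD instrument in 4 SD and 4 WD mice. The authors mapped the reads, cut at the adaptor or else at 31 bases, to mm9 with Bowtie (up to 2 mismatches) and deposited raw, unnormalised counts per RNA and mouse. How a read with several matches was counted, and the Bowtie version, are not given in the sources used here. Counts of all classes were fitted together with edgeR 4.0.16 in R 4.3.3 (TMM, filterByExpr with a minimum count of 10 and minimum total of 15, quasi-likelihood test, two-sided, diet as the only term), and p-values were adjusted by Benjamini-Hochberg over the 16955 RNAs tested. The exact permutation test used log2(CPM + 0.5). DESeq2 1.42.0 and limma 3.58.1 (voom) were alternatives, with other scalings and filters, each SD pair alone, each mouse left out, and a replicate block. The fit was tested on simulated data.

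Positions and sequences come from NCBIM37 with GENCODE M1, matched by transcript identifier, and figures were drawn with matplotlib 3.10.9. Entries were named by rule: the 10 highest mean CPM in each type, any with an unadjusted p of 0.05 or less, defined RNAs by family, and lists of snoRNAs and mitochondrial tRNAs. n-R5s193, n-R5s195, n-R5s28, n-R5s115 and FR294099 were named after their values were seen. Members and lists were chosen with earlier results of these data known. P-values weigh the difference between the diets against the spread among these mice. The sequences of the 5S entries are not reported here.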

Additional observations from a re-analysis of the deposited data

Results flagged for a closer look

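In 50 groups of 4 mice (the rRNA and misc_RNA entries given by name and the 2 class shares, in each diet), the gap of the outermost mouse to its nearest neighbour was compared with Dixon's 95% critical value; about 1 group in 20 passes it by chance, and 2 did. Both were M2W. The 112-base Y RNA was at 195 CPM in M2W and at 133 to 141 CPM in the other WD mice, a gap of 0.869 of the range. The 110-base Y RNA of chromosome 18 was at 7.89 CPM in M2W and at 3.23 to 3.94 CPM in the other WD mice, a gap of 0.846 of the range. M2W also had the lowest share of piRNA counts, 84.4% against 86.3% to 88.6% in the other 7 mice, and the highest share of miRNA counts, 12.7%. With the counts that are not piRNA as the library, the CPM of the 112-base Y RNA was 1245 in M2W and at 1124 to 1216 in the other WD mice, and at 1193 to 1498 in the SD mice. M1N had the 1193 and was below TN1 (1395), TN2 (1369), M2W and M1W, so the order of the mice for this RNA depended on the scale. On the same scale the 110-base Y RNA was at 50.5 in M2W, the highest of all 8 mice, against 25.6 to 34.6 in the other WD mice and 21.2 to 44.7 in the SD mice. The part of the class composition in these values was not tested further.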

How the results depend on the processing

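No member had an adjusted p under 0.05 in any alternative except against M1N and M2N alone, where 2 had (n-R5s185 at 1.08 and the 102-base Y RNA at -0.62). At an unadjusted p of 0.05 or less, 0 members became 2 of 69 without the filter (n-R5s193 and FR294099; 13.3% of all RNAs), 7 with M1N and M2N as the sole SD mice, 2 with TN1 and TN2, and 0 to 2 when a mouse was left out: 2 of 47 without M2N (7.95% of all RNAs), 1 of 47 without TN2 (22.8%) and 2 of 48 without M2W (15.1%). M1N and M1W share a number, as do M2N and M2W, and the labels do not say whether it marks a pairing. Their deviations from the diet means correlated at -0.075 and 0.232. The crossed values were 0.227 (M1N with M2W) and -0.065 (M2N with M1W). With 2 possible pairs these values cannot decide whether M1N and M1W, or M2N and M2W, were paired. In these 4 mice 2 of 47 members passed with the replicate block (22.6% of all RNAs) and 3 with no replicate block (24.1%), and the median log2 fold change of the 5S entries was 0.60 and 0.61. This median, 0.12 in the fit to all mice, was 0.67 against M1N and M2N alone and between -0.07 and 0.37 with a mouse left out. The log2 ratio of the rRNA share, WD over SD, went from -0.08 to 0.10 without FR125214, to -0.01 with M1N and M2N as the SD group, to -0.14 with TN1 and TN2 in their place, and to between -0.12 and -0.02 (without M3W) with a mouse left out. That of the misc_RNA share, -0.19, was -0.30 and -0.08 with these SD pairs, and between -0.32 (without M2W) and -0.12 (without M2N or M5W) with a mouse left out. Against TN1 and TN2 alone the log2 fold change turned to 0.04 for FR125214, -0.36 for n-R5s2, -0.27 for n-R5s185, 0.01 for the 102-base Y RNA and 0.36 for the 110-base Y RNA. With a mouse left out it ran from -0.11 to 0.41 for n-R5s2 (negative without M1N, M2N or M5W) and from -0.47 to 0.04 for the 110-base Y RNA (lowest without M2W, 0.04 without M1N, 0.02 without M5W and at 0.00 when rounded, with its sign turned, without M2N). It kept its sign but ran from -0.50 (without M2W) to -0.02 (without M3W) for the vault RNA, from 0.03 (M2N) to 0.57 (TN2) for n-R5s185, from -0.58 (M2N) to -0.25 (TN1) for FR030731, from -0.54 (M2W) to -0.21 (M1N or M5W) for the 102-base Y RNA, from -0.34 (M2W) to -0.12 (M2N) for the 112-base Y RNA and from -0.25 (TN2) to -0.07 (M1N) for FR125214. In the M1 and M2 mice the vault RNA was at 0.26 with the replicate block and 0.27 without. The cause of these changes was not tested. DESeq2, limma-voom and the other scalings changed no count of calls and no direction of the log2 fold change of FR125214, FR030731, n-R5s2, n-R5s185, the 3 tested Y RNAs or the vault RNA, the members for which it was refitted. Depth limits the entries with few counts: 23 of 69 did not pass the filter, and standard errors reached 0.43 on the log2 scale in the others.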
